A study of Homo sapiens with 4 samples.

Results

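The genes described here encode the enzymes that attach glutathione, glucuronic acid or sulfate to drugs, bile pigments, steroids and lipid peroxides, together with the aldehyde and alcohol dehydrogenases. They were read in cells labelled HepG2, the name of a human cell line derived from a liver tumour. The cells carried a short hairpin RNA (shRNA) against the transcription factor STAT3 or a control hairpin. Members were taken by gene name: the glutathione S-transferases (GST classes A, K, M, O, P, T and Z and the microsomal MGST1 to MGST3), the UDP-glucuronosyltransferases of families UGT1 and UGT2, the sulfotransferases (SULT), the aldehyde dehydrogenases (ALDH) with a family number, a letter and a number in the name, and the class-numbered alcohol dehydrogenases (ADH). The rule found 52 of the 27452 genes in the table: 16 GST and MGST, 7 UGT, 9 SULT, 18 ALDH and 2 ADH genes. ALDH2 falls outside the rule and is given with the related enzymes.

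The study holds 2 RNA-seq libraries labelled Ctrl shRNA and 2 labelled STAT3 shRNA. All are from cells labelled HepG2 and kept in DMEM with serum and antibiotics. The labels name no hairpin sequence and no clone, and do not say whether the libraries of a group were separate cultures, so the spread behind each p-value is that of the 4 libraries and could be technical alone. STAT3 was at 245.0 and 244.3 CPM (read counts scaled to library size) with Ctrl shRNA and at 34.7 and 36.1 CPM with STAT3 shRNA, a 6.91-fold fall (adjusted p = 3.28e-07 by edgeR's two-sided quasi-likelihood test, with Benjamini-Hochberg adjustment over every gene tested). Libraries held 17694642 to 25862027 reads, and 3 reads in a library corresponded to 0.113 to 0.163 CPM. Of all 15199 genes tested, 35.5% passed the threshold of adjusted p under 0.05, 16.8% higher and 18.7% lower with STAT3 shRNA.

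The labelled cell type was set against its defining markers before the results were read. Of 14 hepatocyte markers listed, 7 had a row, and their summed level was 1.47 to 2.49 CPM in every library. Albumin (ALB) had 0 reads in 3 libraries and 3 reads in the other, and APOA2 had 0 reads in all 4. RNAs that define the hepatocyte and that HepG2 is known for were thus at or near 0, and every level below is that of the libraries labelled HepG2. Summed markers of fibroblasts were at 42.0 to 65.1 CPM, of endothelium at no more than 1.86 CPM and of leukocytes, almost all of it CD68, at 10.6 to 27.9 CPM. Of 5 bile duct epithelial markers, 2 were abundant: KRT7 was at 1066 and 1166 CPM with Ctrl shRNA and at 725.7 and 702.3 CPM with STAT3 shRNA, and KRT19 at 95.7 and 118.8 against 163.6 and 158.4 CPM. EPCAM was at 2.76 and 2.88 against 10.4 and 9.78 CPM, and SOX9 and CFTR were below 0.5 CPM in every library. Their part in the results on the enzymes was not tested.

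As background, conjugation is the phase of detoxification in which a reactive or lipid-soluble compound is joined to a water-soluble group so that transporters can export it. GSTs use glutathione, UGTs use UDP-glucuronic acid and SULTs use the sulfate donor PAPS. ALDH enzymes oxidise aldehydes to acids with NAD or NADP, and their substrates range from lipid peroxidation products to retinal and intermediates of amino acid breakdown. ADH enzymes catalyse the step between alcohols and aldehydes.

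Of the 52 members, 37 had enough reads to be tested. Of these, 6 rose, 8 fell and 23 did not pass the threshold, so 37.8% passed, close to the 35.5% of all tested genes. Control and STAT3 shRNA libraries were fully separate in CPM in 23 of the 37, against 70.8% of all tested genes. A called change of at least 2-fold was seen in 6 members, against 8.64% of all tested genes: SULT4A1, SULT1A3 and ALDH1L2 rose, and UGT1A7, ALDH4A1 and GSTT2 fell. SULT4A1 passed the read filter through its STAT3 shRNA libraries, so it had to differ to be tested at all. UGT1A7 would not have passed on its STAT3 shRNA libraries alone, with 17 and 0 reads there. The median log2 fold change of the 37 was 0.0037, beside 0.022 for all tested genes. In such bulk libraries, fewer cells with a transcript and less of it per cell cannot be told apart. Without STAT3 shRNA replicate 1, 2 members were called higher and 4 lower, and without replicate 2 of that group, 4 and 5. In such a fit the lone STAT3 shRNA library is assumed to vary like the controls, which alone give the spread and differed more between replicates (chi-square per degree of freedom 14.6, against 4.34 for STAT3 shRNA), so a call lost there is not by itself a smaller change. The fitted log2 fold change is therefore given beside each lost call. Over all genes those fits called fewer as well, 1128 higher and 1399 lower of 15690 without STAT3 shRNA replicate 1.

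**Figure D1:**
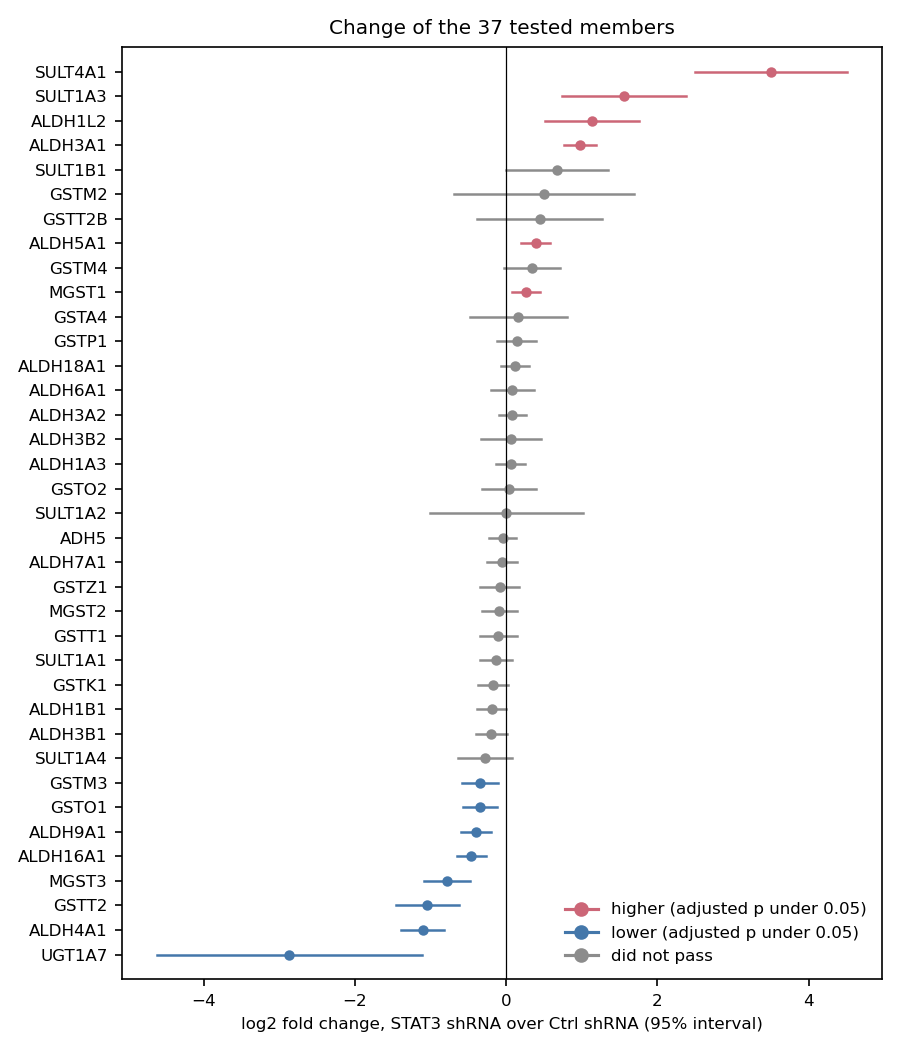
Log2 fold change (x axis, STAT3 shRNA over Ctrl shRNA) of each of the 37 tested members (y axis), with points at the estimate and bars at the 95% interval of the edgeR fit. The 6 red members rose, the 8 blue members fell and the 23 grey members did not pass the threshold; SULT4A1 lies farthest to the right at 3.51 and UGT1A7 farthest to the left at -2.87.

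Levels between genes were compared per length, as FPKM (fragments scaled to transcript length and library size, as deposited). The members with the highest mean FPKM were glutathione enzymes. MGST1, a membrane-bound transferase and peroxidase of the endoplasmic reticulum and outer mitochondrial membrane, was at 257.5 and 294.6 FPKM with Ctrl shRNA and at 379.6 and 334.9 FPKM with STAT3 shRNA. GSTP1, the soluble pi-class enzyme, followed at 243.2 and 325.7 against 302.0 and 328.1 FPKM. The ranges of MGST1 and GSTP1 overlap, as do those of each next pair in the order MGST3, GSTM3, GSTO1, GSTK1, ALDH3A2 and ALDH7A1. The step from ALDH7A1 (93.5 to 115.9 FPKM) down to ADH5 (79.4 to 91.2 FPKM) was the highest place in the order where neighbours did not overlap. Below these lay MGST2 at 68.7 to 83.7 FPKM, then ALDH3A1, whose libraries ran from 40.0 to 88.2 FPKM.

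**Figure D2:**
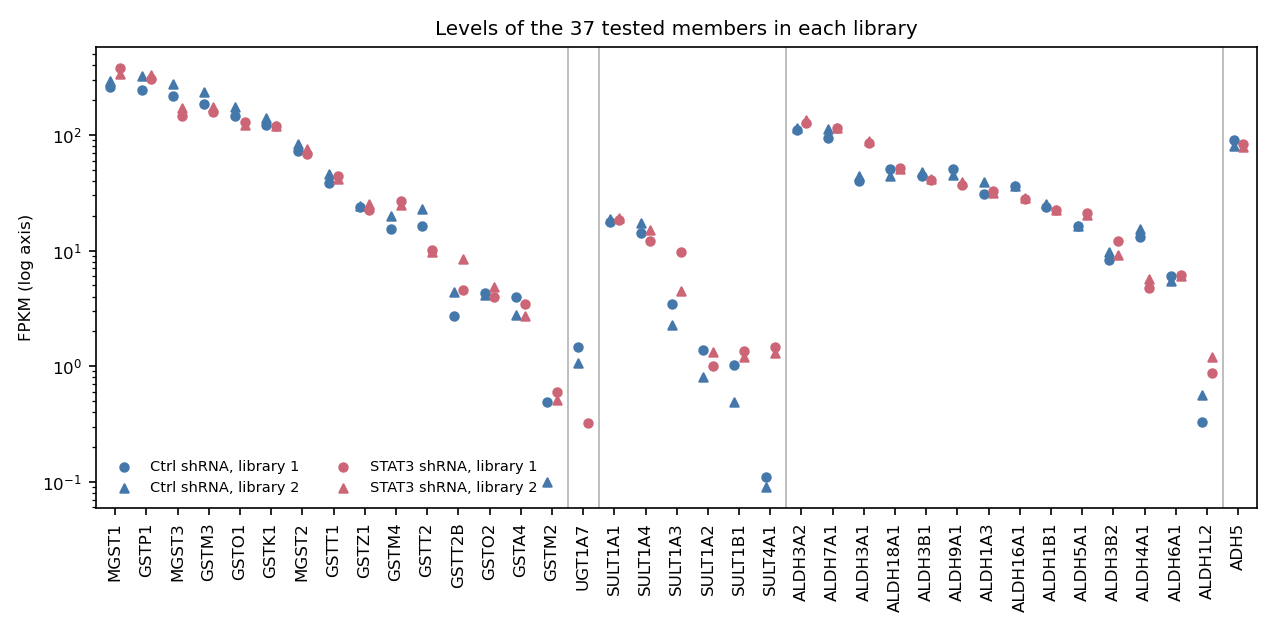
FPKM (y axis, log scale) of the 37 tested members (x axis), grouped by family and ordered by mean within each, with 1 point per library (blue Ctrl shRNA, red STAT3 shRNA; circle replicate 1, triangle replicate 2). UGT1A7 in STAT3 shRNA replicate 2 is 0 and lies off the log axis; SULT4A1 and ALDH3A1 show the red points above the blue ones, and ALDH4A1 and GSTT2 the reverse.

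Among the glutathione transferases 4 fell and 1 rose, and 10 did not pass (33.3% called, against 35.5% of all tested genes). MGST3 (ENSG00000143198.13; GENCODE 29 on GRCh38, chromosome 1, 165630861 to 165661796, plus strand), a microsomal enzyme that conjugates leukotriene A4 and reduces lipid hydroperoxides, was at 110.5 and 146.4 CPM with Ctrl shRNA and at 69.5 and 79.6 CPM with STAT3 shRNA. Both STAT3 shRNA libraries lay below both controls, although the controls themselves differed widely (128.4 ± 25.4 against 74.6 ± 7.12 CPM, SD, n = 2 each). Its log2 fold change was -0.79 ± 0.13 (SE; adjusted p = 0.00251, edgeR), a 1.72-fold fall.

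GSTT2 (ENSG00000099984.11; chromosome 22, 23980058 to 23983915), a theta-class gene, was at 14.2 and 19.9 CPM with Ctrl shRNA and at 8.55 and 7.99 CPM with STAT3 shRNA. GENCODE 29 types GSTT2 as a polymorphic pseudogene. It fell 2.06-fold (log2 fold change -1.04 ± 0.18 SE, adjusted p = 0.00301, edgeR). GSTT2B, a near-identical copy close by on the opposite strand, had only 1.43 and 1.25 against 1.61 and 2.07 CPM, and did not pass. Reads cannot be assigned with certainty between these copies, so they were also summed: the pair went from 15.6 and 21.1 CPM to 10.2 and 10.1 CPM, a 1.82-fold fall (adjusted p = 0.00469, edgeR). Of the 10 tested genes nearest to GSTT2, 5 fell and 0 rose, beside 18.7% and 16.8% of all tested genes. Their median log2 fold change was -0.47. An opposite-strand locus, AC253536.7, overlaps GSTT2 with 29.2% as many reads, and the use of strand in counting is not given in the sources used here.

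GSTO1 and GSTM3 fell by less. GSTO1, the omega-class enzyme that reduces dehydroascorbate and methylated arsenic, was at 83.4 and 96.4 CPM with Ctrl shRNA and at 73.7 and 67.5 CPM with STAT3 shRNA (1.27-fold lower, adjusted p = 0.0258, edgeR). GSTM3, a mu-class enzyme, was at 98.0 and 116.7 against 81.5 and 87.7 CPM (1.27-fold lower, adjusted p = 0.0297, edgeR). In both genes the groups were separate but the gap between them was no wider than the gap between the 2 controls. Without STAT3 shRNA replicate 1 or replicate 2 neither passed. GSTO1 was then at -0.41 and -0.29, beside -0.35 with all libraries (adjusted p = 0.098 and 0.249, edgeR), and GSTM3 at -0.29 and -0.40, beside -0.35 (0.248 and 0.112).

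MGST1 was the member of this family that rose, from 164.6 and 159.9 CPM to 189.1 and 200.1 CPM (log2 fold change 0.26 ± 0.08 SE, adjusted p = 0.0338, edgeR). The groups did not overlap. MGST1 was at 0.30 and 0.22 with STAT3 shRNA replicate 1 or replicate 2 left out and did not pass (adjusted p = 0.187 and 0.347, edgeR), and with an offset for GC content the log2 fold change was 0.098 (0.283).

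GSTP1 did not pass: it was at 123.6 and 155.9 CPM with Ctrl shRNA and at 150.9 and 157.1 CPM with STAT3 shRNA. The STAT3 shRNA values lay at the level of the higher control, with a log2 fold change of 0.14 and a 95% interval of -0.11 to 0.39 (adjusted p = 0.364, edgeR). Its sign depended on the control used: without Ctrl shRNA replicate 1 it was -0.051, and without replicate 2 it was 0.31. In fits without a control library the STAT3 shRNA pair alone gives the spread, so a call gained there is not by itself a larger change. With a GC offset GSTP1 passed at 0.44 (adjusted p = 0.00294, edgeR). GSTM4, another mu-class gene, was at 17.1 and 23.4 against 28.2 and 23.1 CPM and did not pass (log2 fold change 0.35). Leaving out Ctrl shRNA replicate 1 gave 0.11, and leaving out replicate 2 gave 0.59. GSTK1, the mitochondrial and peroxisomal kappa-class enzyme, had a log2 fold change of -0.17 and a 95% interval of -0.37 to 0.030. Leaving out Ctrl shRNA replicate 1 gave -0.28, and leaving out replicate 2 gave -0.094. The other 6 that did not pass were GSTT1, MGST2, GSTZ1, GSTO2, GSTA4 and GSTM2, with log2 fold changes from -0.10 for GSTT1 to 0.50 for GSTM2. The opposite-strand gene POMT2 overlaps GSTZ1 with 136.4% as many reads. GSTM1 had 0 to 6 reads per library and was not tested.

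Promoters are printed for some of the glutathione enzymes: GSTP1, at the head of the soluble enzymes, which did not pass, and GSTO1 and MGST3, which fell. Each run below is the 250 bases before the RefSeq start, 5′ to 3′ on the gene's strand (all plus), from the GRCh38.p14 table. The spans are chr11:67583562-67583811 for GSTP1, chr10:104254642-104254891 for GSTO1 and chr1:165630984-165631233 for MGST3. Capitals mark TGACNNNGC on either strand, the core of the antioxidant response element bound by NRF2 with small MAF proteins.
GSTP1: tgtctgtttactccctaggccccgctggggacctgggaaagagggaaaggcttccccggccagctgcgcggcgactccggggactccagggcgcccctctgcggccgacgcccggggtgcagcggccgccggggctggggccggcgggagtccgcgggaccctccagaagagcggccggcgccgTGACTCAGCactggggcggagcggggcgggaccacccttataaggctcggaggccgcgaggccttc
GSTO1: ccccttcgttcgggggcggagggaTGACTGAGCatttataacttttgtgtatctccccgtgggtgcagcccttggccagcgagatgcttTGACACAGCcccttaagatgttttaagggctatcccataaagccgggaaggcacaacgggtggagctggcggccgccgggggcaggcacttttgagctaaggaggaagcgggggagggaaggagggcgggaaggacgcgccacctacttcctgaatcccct
MGST3: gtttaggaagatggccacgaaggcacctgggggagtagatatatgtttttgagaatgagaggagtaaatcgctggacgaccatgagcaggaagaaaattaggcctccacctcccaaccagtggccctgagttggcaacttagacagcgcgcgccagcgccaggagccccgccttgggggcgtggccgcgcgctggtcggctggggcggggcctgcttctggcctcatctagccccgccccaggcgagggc

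The match in GSTP1 began 66 bases before the start, and those in GSTO1 began 226 and 161 bases before it. In MGST3 these letters were not in the window. Nor were they in the windows of MGST1, which rose, or GSTM3, which fell, and these are not printed. The table held 49 promoters of 40 members. Of the 14 changed members, 5 had no entry: ALDH3A1, GSTT2, SULT4A1, ALDH1L2 and ALDH16A1. TGACNNNGC was in 6 of the 49 (12.2%), those of GSTA4, GSTM1, GSTO1, GSTP1, SULT1C2 and UGT1A6, against 10.9% of all 35116 promoters. TTCNNNGAA, the palindromic letters that STAT dimers bind, was in 0 of the 49, against 6.6% of all promoters. GCGTG, the core recognised by the aryl hydrocarbon receptor with ARNT, was in 15 of the 49 (30.6%), MGST3 among them, against 32.2%. Both strands were searched, and matches are letters in a window, not sites of binding.

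The UGT genes were near the limit of detection. Glucuronidation by UGT1A and UGT2B enzymes is a main route of clearance for bilirubin, steroids and drugs in liver. Of 7 members, UGT1A7 alone passed the filter, which its STAT3 shRNA libraries by themselves would not have met. It had 57 and 43 reads with Ctrl shRNA and 17 and 0 reads with STAT3 shRNA. That is 3.02 and 2.25 CPM against 0.638 and 0 CPM (log2 fold change -2.87 ± 0.77 SE, adjusted p = 0.0199, edgeR), while DESeq2 gave -3.05 and did not call it (adjusted p = 0.305, the highest over its alternatives, which began at 1.26e-08). Without STAT3 shRNA replicate 2 the value was -2.04. Without replicate 1 it was -8.63, a fit against 0 reads that depends on the prior count. UGT1A10, an intestinal isoform, had 8 and 11 reads with Ctrl shRNA and 0 and 0 with STAT3 shRNA. That is 7.51-fold lower when 3 reads over the group are taken as the floor, leaving aside the counting error of the control reads. UGT1A1, the bilirubin-conjugating isoform, had 1 and 2 reads against 4 and 6, 2.81 times as much per read sequenced (95% counting interval 0.724 to 15.9).

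UGT1A genes share their last exons and differ in the first, so a read from the shared part belongs to none of them in particular. Summed over UGT1A1, UGT1A4, UGT1A6, UGT1A7, UGT1A8 and UGT1A10, the locus on chromosome 2 had 66 and 63 reads with Ctrl shRNA and 21 and 8 with STAT3 shRNA. In CPM it was at 3.50 and 3.29 against 0.788 and 0.435, a 5.36-fold fall (log2 fold change -2.42 ± 0.38 SE, adjusted p = 0.00174, edgeR). Without 1 library at a time the sum ran from -2.95 to -2.10, with adjusted p-values up to 0.00936. Of the 10 nearest tested genes outside the family, 7 fell and 0 rose, beside 18.7% and 16.8% of all tested genes. Their median log2 fold change was -0.53. UGT1A4 had 0 reads in every library and UGT2B7, a main opioid-conjugating enzyme of liver, a single read in 1 library.

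**Figure D3:**
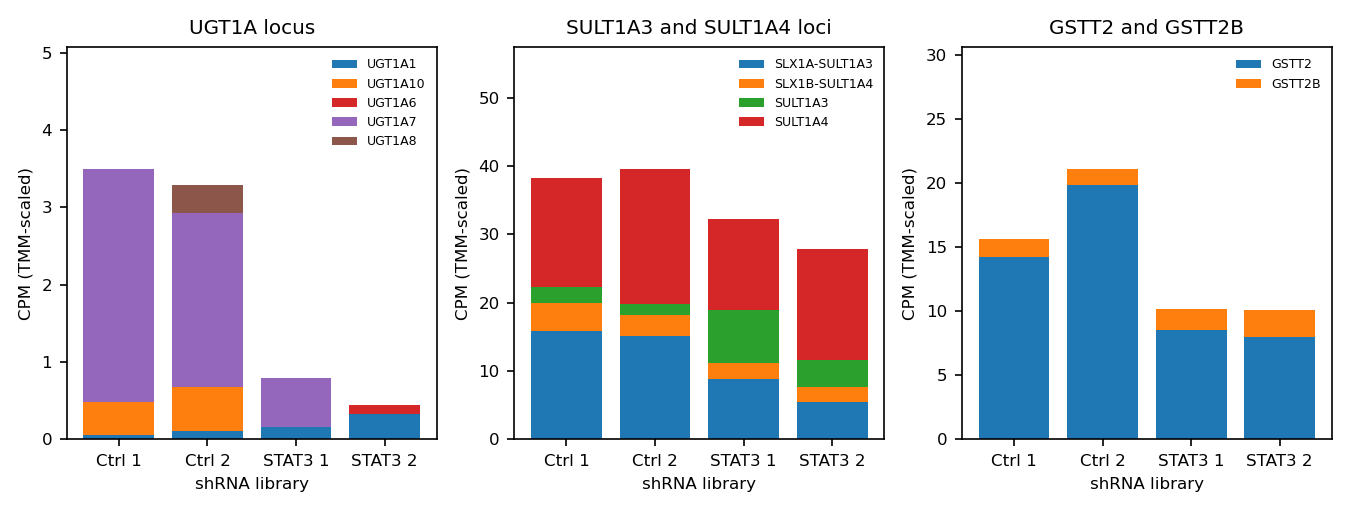
CPM (y axis, scaled to library size) in each of the 4 libraries (x axis), stacked by gene for 3 groups of genes that share exons or are near-identical. The UGT1A and GSTT2 stacks are shorter in both STAT3 shRNA libraries, while in the middle panel the green SULT1A3 part grows as the stack as a whole becomes shorter.

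Of the 6 sulfotransferases tested, SULT4A1 and SULT1A3 were called higher (33.3% called, against 35.5% of all tested genes). SULT4A1 (ENSG00000130540.14; chromosome 22, 43824509 to 43862503, minus strand), a conserved member expressed mainly in brain with little known enzyme activity, had 5 and 4 reads with Ctrl shRNA and 80 and 46 with STAT3 shRNA. At 0.265 and 0.209 against 3.001 and 2.50 CPM it rose 11.4-fold (log2 fold change 3.51 ± 0.44 SE, adjusted p = 0.00058, edgeR) and stayed low in absolute terms, below 1.5 FPKM. It passed the filter through the STAT3 shRNA libraries. Of the 10 tested genes nearest to it, 5 fell and 1 rose, beside 18.7% and 16.8% of all tested genes. SULT1E1, the estrogen sulfotransferase, had 0 reads in both controls and 19 and 4 reads with STAT3 shRNA, at least 6.46-fold higher against 3 reads over the group, and was too low to be tested.

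SULT1A3 and SULT1A4 encode the same protein, the sulfotransferase of dopamine and other catecholamines, from a duplicated stretch of chromosome 16. SULT1A3 alone was at 2.39 and 1.62 CPM with Ctrl shRNA and at 7.80 and 3.91 CPM with STAT3 shRNA (log2 fold change 1.56, adjusted p = 0.0105, edgeR). SULT1A4 was at 15.9 and 19.9 against 13.3 and 16.3 CPM and did not pass. With the read-through genes SLX1A-SULT1A3 and SLX1B-SULT1A4 added, the 4 genes together went from 38.2 and 39.6 to 32.3 and 27.9 CPM, a log2 fold change of -0.37 (adjusted p = 0.0272, edgeR). The rise of SULT1A3 thus turned into a fall when reads of its copies were counted with it, and cannot be told apart from a different split of reads among them. The sum was at -0.48 and -0.27 with STAT3 shRNA replicate 1 or replicate 2 left out and did not pass (adjusted p = 0.0767 and 0.330, edgeR). SULT1A3 alone was at 0.96 without STAT3 shRNA replicate 1 and did not pass (0.149).

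SULT1A1, the phenol sulfotransferase and the most abundant gene of the family by CPM, was at 36.8 and 37.4 against 33.7 and 33.7 CPM. The groups were separate but the difference of -0.14 on the log2 scale (95% interval -0.35 to 0.075) did not pass (adjusted p = 0.284, edgeR). SULT1B1, which sulfates thyroid hormone, was at 7.05 and 3.398 CPM in controls and at 8.82 and 7.83 CPM with STAT3 shRNA. Ctrl shRNA replicate 2 lay far below the other 3 libraries, and the log2 fold change of 0.67 did not pass (adjusted p = 0.109, edgeR). Leaving out Ctrl shRNA replicate 2 gave 0.24 and leaving out replicate 1 gave 1.26. SULT1A2 was near 1 CPM in every library, and SULT1C2 and SULT2B1 had at most 6 reads.

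Of the 14 aldehyde dehydrogenases tested, 3 rose, 3 fell and 8 did not pass (42.9% called, against 35.5% of all tested genes). ALDH3A1 (ENSG00000108602.18; chromosome 17, 19737984 to 19748943, minus strand) oxidises aromatic and lipid-derived aldehydes, is abundant in cornea and stomach, and is a classical target of the aryl hydrocarbon receptor. It was at 55.4 and 63.2 CPM with Ctrl shRNA and at 115.8 and 117.8 CPM with STAT3 shRNA. The groups stood far apart (59.3 ± 5.55 against 116.8 ± 1.39 CPM, SD, n = 2 each), with a log2 fold change of 0.98 ± 0.09 (SE; adjusted p = 0.000146, edgeR), a 1.97-fold rise that was called in every alternative run. Its neighbour ALDH3A2, the fatty aldehyde dehydrogenase and the member with the most reads, was at 281.6 and 273.5 against 287.5 and 298.8 CPM and did not pass (adjusted p = 0.47, edgeR). The 95% interval of ALDH3A2 was -0.099 to 0.26 and that of ALDH3A1 was 0.77 to 1.19.

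ALDH4A1 moved the other way. This mitochondrial enzyme (ENSG00000159423.17; chromosome 1, 18871430 to 18902781, minus strand) carries out the last step of proline breakdown to glutamate. It was at 26.4 and 30.7 CPM with Ctrl shRNA and at 12.8 and 13.9 CPM with STAT3 shRNA, a 2.15-fold fall (log2 fold change -1.10 ± 0.13 SE, adjusted p = 0.000359, edgeR). The fall was called in every alternative run. ALDH18A1, which makes the same intermediate from glutamate on the way to proline, was at 143.6 and 134.3 against 150.8 and 151.0 CPM and did not pass (adjusted p = 0.286, edgeR). Of the 10 tested genes nearest to ALDH4A1, 5 fell and 1 rose, beside 18.7% and 16.8% of all tested genes. Their median log2 fold change was -0.57. Neighbours of some members that did not pass were shifted too. Near GSTP1 0 rose and 4 fell (median -0.29), and near ALDH7A1 5 rose and 0 fell (0.34). Near others that did not pass, such as ALDH6A1 and GSTM4, 0 rose and 0 fell. Some changed members also had few changed neighbours: 0 rose and 0 fell near GSTM3, 1 and 1 near ALDH3A1, and 1 and 0 near ALDH1L2. Near MGST1 and ALDH16A1 3 rose and 2 fell.

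ALDH1L2 and ALDH5A1 rose. ALDH1L2, the mitochondrial formyltetrahydrofolate dehydrogenase of one-carbon metabolism, was at 2.39 and 1.73 against 4.28 and 4.78 CPM (2.20-fold, adjusted p = 0.0122, edgeR). The opposite-strand gene C12orf45 shares its span and holds 732.9% as many reads, so the value of ALDH1L2 is uncertain to that extent. ALDH5A1, the succinic semialdehyde dehydrogenase of GABA breakdown, was at 73.8 and 70.4 against 95.4 and 93.5 CPM (1.31-fold, adjusted p = 0.00704, edgeR). In ALDH5A1 the libraries of each group lay close together and the groups well apart. Without STAT3 shRNA replicate 1 or replicate 2 neither passed, with values close to those over all libraries. ALDH1L2 was at 1.22 and 1.05, beside 1.14 (adjusted p = 0.0518 and 0.0916, edgeR), and ALDH5A1 at 0.38 and 0.40, beside 0.39 (0.109 and 0.0826).

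ALDH9A1 and ALDH16A1 fell. ALDH9A1, which oxidises the aldehyde precursor of carnitine, was at 121.9 and 110.9 against 87.6 and 89.1 CPM (1.32-fold, adjusted p = 0.00775, edgeR). It lies next to MGST3 on chromosome 1, on the opposite strand, and both fell. Of the 10 nearest tested genes outside the families 3 rose and 1 fell, beside 16.8% and 18.7% of all tested genes. ALDH9A1 was at -0.38 and -0.41, beside -0.40, with STAT3 shRNA replicate 1 or replicate 2 left out and did not pass (adjusted p = 0.109 and 0.0866, edgeR). ALDH16A1, an unusual member whose catalytic cysteine is missing in mammals, was at 85.8 and 89.1 against 61.3 and 66.1 CPM (1.37-fold, adjusted p = 0.00414, edgeR). The opposite-strand gene PIH1D1 shares its span and holds 133.6% as many reads. ALDH16A1 did not pass without STAT3 shRNA replicate 1, at -0.40 beside -0.46 (adjusted p = 0.0952, edgeR), or with a GC offset, at -0.16 (0.129).

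The remaining aldehyde dehydrogenases gave values close to the controls. ALDH7A1, an enzyme of lysine breakdown, was at 134.7 and 151.0 against 138.3 and 137.4 CPM, and ALDH1A3, which makes retinoic acid from retinal, at 92.0 and 84.8 against 90.9 and 93.3 CPM. Neither passed, and in each the groups overlapped. ALDH3B1 and ALDH1B1 had log2 fold changes of -0.20 and -0.19 and separate groups, without passing (adjusted p = 0.128 and 0.112, edgeR). Without Ctrl shRNA replicate 1 they were -0.32 and -0.25, and without replicate 2 they were -0.10 and -0.17. ALDH3B2 and ALDH6A1 had log2 fold changes of 0.064 and 0.084. ALDH1A1, the retinal dehydrogenase of many epithelia and stem cells, had 0 reads in 3 libraries and 3 in the other, and ALDH1A2, ALDH1L1 and ALDH8A1 had at most 2 reads in any library.

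ADH5 was the alcohol dehydrogenase that could be tested. This class III enzyme oxidises formaldehyde bound to glutathione and reduces S-nitrosoglutathione. It was at 119.0 and 117.6 CPM with Ctrl shRNA and at 116.0 and 113.8 CPM with STAT3 shRNA, and did not pass (log2 fold change -0.043, 95% interval -0.22 to 0.14, adjusted p = 0.708, edgeR). With a GC offset it was -0.23 and passed (0.0305). ADH6 had 0 reads in all 4 libraries, which allows up to 0.113 to 0.163 CPM per library.

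Genes around these enzymes were read from 5 lists. Over the lists 21 of 92 tested genes rose and 22 fell, 46.7% in all against 35.5% of all tested genes; the lists were chosen with earlier results known and nothing is read from that share. Without STAT3 shRNA replicate 1 these counts were 12 and 14, without replicate 2 of that group 13 and 14, and without Ctrl shRNA replicate 1 25 and 34. For glutathione synthesis and turnover, 3 of 15 tested genes rose and 6 fell (60.0% called, median log2 fold change -0.12). GCLM, the modifier subunit of the enzyme that starts glutathione synthesis, was at 48.8 and 44.6 against 84.9 and 96.6 CPM (1.94-fold higher, adjusted p = 0.000238, edgeR). The catalytic subunit GCLC was at 50.2 and 53.0 against 61.2 and 54.8 CPM and did not pass; it was named after its values were seen. GGT5, a gamma-glutamyl transferase that cleaves leukotriene C4, was at 10.1 and 9.93 against 2.40 and 2.01 CPM (4.49-fold lower, adjusted p = 0.000142, edgeR). SLC3A2, the heavy chain of the cystine and large amino acid carriers, fell 1.62-fold. SLC7A11, a cystine carrier gene of the same list, was at 68.1 and 52.6 against 90.45 and 98.1 CPM (1.56-fold higher, adjusted p = 0.00436, edgeR). It too was named after its values were seen.

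Among genes of UDP-glucuronate and PAPS supply and of deconjugation, 5 of 19 rose and 0 fell (median 0.20), beside 16.8% and 18.7% of all tested genes. PAPSS2, which makes PAPS, was at 105.6 and 102.0 against 142.9 and 141.7 CPM (1.37-fold higher, adjusted p = 0.00285, edgeR, and 0.0502 at 0.45 beside 0.46 on the log2 scale without STAT3 shRNA replicate 1). The steroid sulfatase STS was at 42.6 and 37.6 against 60.0 and 60.8 CPM (1.504-fold higher, adjusted p = 0.0022, edgeR). SULF2, which removes sulfate from heparan sulfate, rose 3.02-fold from a low level on a span shared with the far more abundant NCOA3. The groups were separate in all 3 genes.

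Of 13 tested conjugating enzymes outside the rule, 3 rose and 3 fell (46.2% called, against 35.5% of all tested genes, median -0.17). Nicotinamide N-methyltransferase (NNMT) was at 183.8 and 187.2 against 84.3 and 78.6 CPM and the thiopurine methyltransferase TPMT at 45.9 and 43.5 against 27.6 and 28.6 CPM, 2.28-fold and 1.59-fold lower (adjusted p = 3.26e-05 and 0.00109, edgeR). The arylamine acetyltransferase NAT1 was at 1.33 and 1.41 against 4.84 and 4.35 CPM (3.35-fold higher, adjusted p = 0.00163, edgeR). The groups did not overlap in any of the 3.

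Of 23 other enzymes of alcohol and aldehyde metabolism, 4 rose and 8 fell (52.2% called, against 35.5% of all tested genes, median -0.0099). Carbonyl reductase CBR1 was at 130.3 and 161.6 against 67.5 and 65.5 CPM (2.19-fold lower, adjusted p = 0.000166, edgeR). Sorbitol dehydrogenase (SORD) and the acetyl-CoA synthetase ACSS2, which activates acetate, fell 1.65-fold and 1.89-fold (adjusted p = 0.000391 and 0.000702, edgeR). ALDH2, the mitochondrial enzyme of ethanol-derived acetaldehyde, was at 58.3 and 80.7 against 72.1 and 69.3 CPM, with overlapping groups, and did not pass (adjusted p = 0.902, edgeR).

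Of 22 tested regulators of conjugating enzyme genes, 6 rose and 5 fell (50% called, against 35.5% of all tested genes, median -0.14). The aryl hydrocarbon receptor AHR was at 25.2 and 20.8 against 46.9 and 49.4 CPM (2.09-fold higher, adjusted p = 0.000294, edgeR). Its repressor AHRR was at 528.6 and 524.6 against 268.9 and 261.8 CPM (1.98-fold lower, adjusted p = 5.86e-05, edgeR), and the small MAF protein MAFK fell 2.34-fold (adjusted p = 0.000164, edgeR) where TMEM184A overlaps it on the opposite strand with 78.6% as many reads. The AHRR values are those of the entry ENSG00000286169.1, and whether its reads come from AHRR alone was not tested. The receptor and this entry moved in opposite directions, and the groups did not overlap in AHR, AHRR or MAFK. NFE2L2, which encodes NRF2, was at 160.4 and 135.0 against 131.3 and 131.1 CPM and did not pass (adjusted p = 0.208, edgeR). AGPS overlaps NFE2L2 on the opposite strand with 95.9% as many reads. KEAP1, the adaptor that targets NRF2 for degradation, fell 1.32-fold (adjusted p = 0.0061, edgeR). The hepatic factor HNF4A was low and rose, from 1.27 and 1.78 to 7.20 and 4.95 CPM (adjusted p = 0.00131, edgeR). NFE2L2, KEAP1 and HNF4A, like ALDH2, were named after their values were seen.

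**Figure D4:**
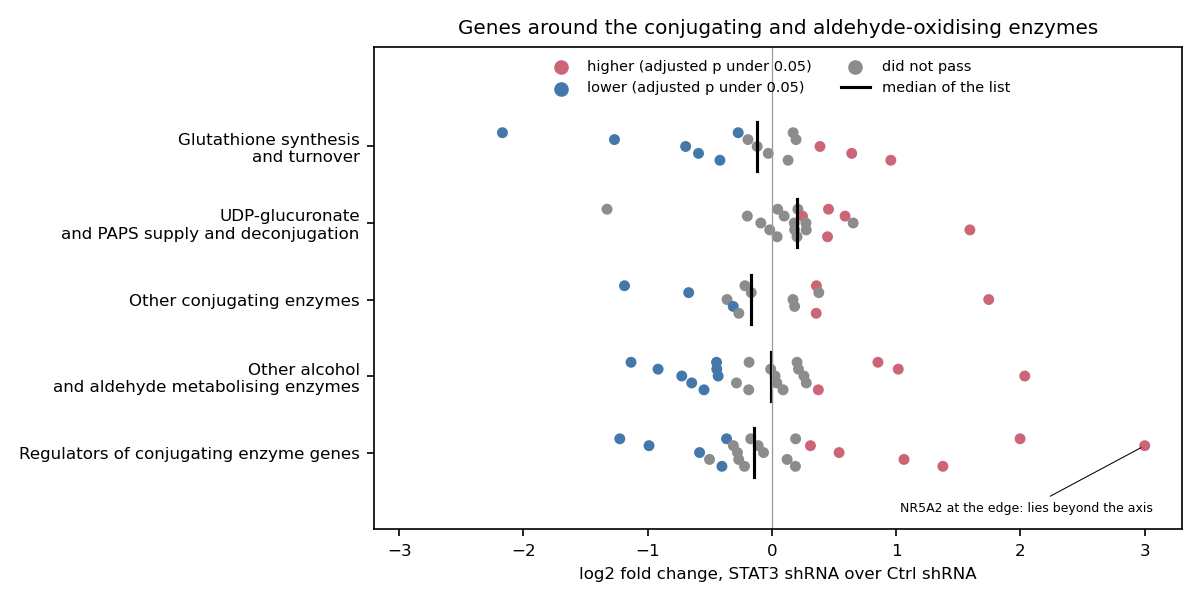
Log2 fold change (x axis, STAT3 shRNA over Ctrl shRNA) of the tested genes of 5 related lists (y axis, points spread vertically for legibility), with black bars at the list medians of -0.12, 0.20, -0.17, -0.0099 and -0.14 from top to bottom. Red points rose, blue points fell and grey points did not pass; the list of UDP-glucuronate and PAPS supply holds 5 red points and 0 blue ones, and NR5A2 is drawn at the edge because it had 0 reads in both controls.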

How the data were processed

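The authors deposited raw read counts and FPKM per gene for the 4 libraries. For the aligner, counting tool, build, annotation and strand, the sources used here give nothing. Columns named Ctrl and Si with a number were matched to samples by name, with Si read as STAT3 shRNA. Positions are from GENCODE 29 (GRCh38), matched by Ensembl ID without version for 51 of 52 members; GSTT1 had no entry.

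The test on counts was that of edgeR 4.0.16, run in R 4.3.3 (TMM, filterByExpr, quasi-likelihood, two-sided, group as the only term, Benjamini-Hochberg over 15199 genes, threshold 0.05). CPM are TMM-scaled with SDs over 2 libraries. Counting intervals (exact, 95%) cover counting error only, since these reads carry no molecular identifiers. Fold values against a floor of 3 reads leave out the counting error of the reads seen. Copies were sought with blastn 2.17.0 (95% identity over 50% of the transcript). Alternatives used limma 3.58.1 on log2(FPKM + 1) and log2(FPKM + 0.1), DESeq2 1.42.0, other scalings, filters and offsets, and sums over copies. The test was run on simulated counts with the same spread for all genes and both groups, and with far fewer changed genes than were called here. That run does not show how the test behaves where the spread differs between groups. Every tested member was named, with library values for those past the threshold and for the 2 most abundant of each family, and the 3 smallest p-values of each related list. Some members that this rule leaves to ranges are given with values too. Members and lists were chosen with earlier results of these data known. Leaving out libraries with sums over copies, the alternatives for related genes and the reading of neighbouring genes were added after the data were seen.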

Additional observations from a re-analysis of the deposited data

How the results depend on the processing

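Of the 14 changed members, ALDH3A1, ALDH4A1, GSTT2 and MGST3 were called in every alternative. SULT4A1 was called in the 12 run on it (a filter of 5 CPM leaves it out). Of the 23 that did not pass, 8 passed in at least 1 alternative in the same direction. With a filter of 5 CPM in 2 libraries, which leaves fewer genes to test, 3 members rose and 7 fell. Over all genes that filter gave 2396 higher and 2516 lower of 11280. With limma on FPKM 2 members rose at both pseudocounts, and 5 and 4 fell with pseudocounts of 1 and 0.1. Over all genes limma called 1349 higher and 1186 lower, and 1315 and 1179, while leaving out 1 STAT3 shRNA library gave 1128 and 1399 or 1147 and 1420. Leaving out 1 library gave 2 to 8 members higher and 4 to 12 lower, and 12 to 25 related genes higher and 14 to 34 lower. SULT1A3 and GSTT2B reversed when reads were summed over copies, to -0.37 and -0.86. UGT1A7 was not called by DESeq2 (adjusted p = 0.305) or on log2(FPKM + 0.1) (0.0596, limma). On log2(FPKM + 1) the calls of GSTM3 (-0.33), GSTO1 (-0.33), MGST1 (0.37), ALDH5A1 (0.33), ALDH9A1 (-0.32), ALDH1L2 (0.49) and SULT1A3 (1.01) were lost too, as they were with 0.1, and that of GSTM3 with upper-quartile scaling (0.056, edgeR); the cause was not tested. With the replicate number as a block, 7 members rose and 8 fell, and SULT1B1 passed (0.0211, edgeR). Over all genes that block gave 2594 higher and 2853 lower of 15199. The labels do not say that the numbers pair libraries, and deviations of same-numbered libraries correlated at -0.029 across genes. At this depth the 15 members that were not tested, with at most 19 reads in a library, carry only counting intervals or values against a floor.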
